A study of Homo sapiens with 3 samples.

Results

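HIF1A, EPAS1, HIF3A, ARNT, EGLN1, EGLN2, EGLN3, VHL, HIF1AN and CA9 make up a core of the hypoxia-inducible factor (HIF) pathway. They were chosen by symbol, and all 10 were among the 35880 gene symbols of the deposited transcript table. RNA was measured in HEK293T, a human line of embryonic kidney origin that expresses SV40 large T antigen. The cells were left untreated in high-glucose medium with 10% fetal bovine serum and were harvested at 70% confluence. Poly(A) RNA was sequenced from 3 directional libraries, described as biological replicates 1, 2 and 3. They formed 1 group with no second condition, and the oxygen level was not stated, so the results are the level of each gene, its transcripts and the order of the levels.

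HIF is a pair of proteins, an alpha subunit (HIF1A, EPAS1 or HIF3A) and the constant partner ARNT, that binds DNA and switches on genes for life at low oxygen. When oxygen is present, the prolyl hydroxylases EGLN1, EGLN2 and EGLN3 modify the alpha subunits, VHL recognises the modified form, and a ubiquitin ligase built around VHL marks it for destruction. HIF1AN hydroxylates an asparagine of HIF1A and EPAS1, which keeps coactivators away. CA9, a carbonic anhydrase of the cell surface, is a widely used target gene of HIF. Oxygen acts on the alpha subunits mainly at the protein level, which RNA does not measure.

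Most of the 10 genes were carried by several transcripts, and the annotated splice junctions that tell the abundant ones apart are shown first. Each sequence runs 5′ to 3′ along the transcript and comes from hg38 at the exons of GENCODE release 29. Capitals mark the bases that follow the junction, except in HIF1A-203, where they mark the bases that HIF1A-202 lacks. HIF1A-202 is printed without capitals for comparison. HIF1A-211 joins exon 1 to the exon after exon 2.
HIF1A-202: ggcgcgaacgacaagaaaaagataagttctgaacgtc
HIF1A-203: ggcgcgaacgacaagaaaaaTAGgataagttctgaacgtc
HIF1A-211: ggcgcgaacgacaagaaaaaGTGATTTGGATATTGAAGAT
VHL-201: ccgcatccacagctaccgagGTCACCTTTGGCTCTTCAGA
VHL-202: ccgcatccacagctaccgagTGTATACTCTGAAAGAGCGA
VHL-203: actagccaaccctagGTCACCTTTGGCTCT
EGLN1-201: aatggccggacgaaaGCCATGGTTGCTTGT
EGLN1-202: tatcctcccaatttgGCCATGGTTGCTTGT
ARNT-202: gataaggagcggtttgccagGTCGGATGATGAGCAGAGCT
ARNT-208: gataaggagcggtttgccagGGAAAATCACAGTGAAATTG
HIF1AN-201: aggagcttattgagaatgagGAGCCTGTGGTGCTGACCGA
HIF1AN-203: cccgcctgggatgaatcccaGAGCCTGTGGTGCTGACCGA

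In these cells 8 of the 10 genes were above 1 TPM (transcripts per 1000000 transcripts, a level corrected for transcript length within a library), and HIF3A and CA9 were below it. Levels on the log2(TPM + 0.01) scale were set against 1 TPM with limma, and a gene was called at a Benjamini-Hochberg adjusted p under 0.05 over the 21990 symbols above 0. By the same rule 58.5% of those symbols were above 1 TPM and 33.9% were below it. VHL was the highest of the 10, with a mean of 76.9 TPM ± 1.02 (SD, n = 3). The whole set summed to 321.5 TPM on average. HEK293T markers fitted the label, with 8 of 8 above 1 TPM (VIM 401 TPM ± 8.62, SD, n = 3), while of 8 blood and endothelial markers none was above, 5 were below and CD3E, HBB and CLDN5 were listed at 0, and their summed level was 0.653 to 0.870 TPM. Without replicate 1, 3 of these markers were called below 1 TPM, and none above. When set against 2 TPM, 7 of the HEK293T markers were above and 1 was below. PAX2, the lowest of them, was at 1.57 TPM ± 0.0836. With protein-coding transcripts alone, 7 of them were above 1 TPM. Depth, estimated from the spacing of low values, was 33200000 to 33700000 reads per library. Whether the libraries came from separate cultures is not stated, so each p-value reflects the spread of these 3 libraries, which may be technical.

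**Figure D1:**
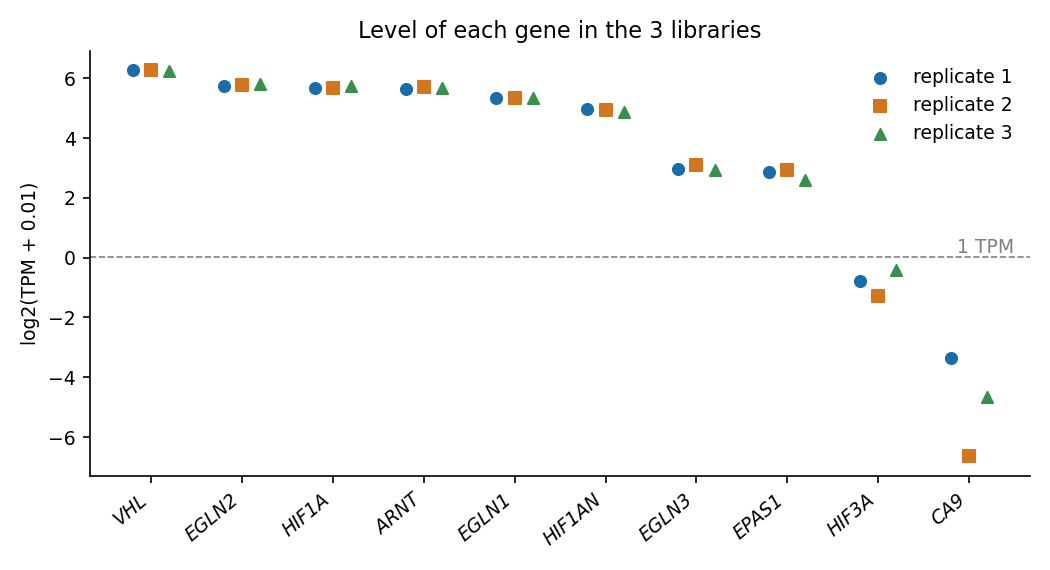
Level of each of the 10 genes on the log2(TPM + 0.01) scale (vertical axis), 1 point per library, with the dashed line at 1 TPM. The 8 genes from VHL to EPAS1 lie above the line in all 3 libraries, HIF3A and CA9 lie below it, and CA9 was listed at 0 in replicate 2.

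Among the alpha subunits, HIF1A was the most abundant by far. HIF1A, the broadly expressed alpha subunit, lies on chromosome 14 at 61695513 to 61748259 (hg38, plus strand). Its level was 51.1, 50.7 and 53.3 TPM in replicates 1, 2 and 3 (mean 51.7 ± 1.42, SD, n = 3). EPAS1, also known as HIF-2 alpha and best known from endothelium, lung and kidney, lies on chromosome 2 at 46293667 to 46386703 (plus strand) and was at 7.25, 7.68 and 5.98 TPM (mean 6.97 ± 0.881). Every library of HIF1A stood far above every library of EPAS1, and the latter was lowest in replicate 3. HIF3A, an alpha subunit with many splice forms, some of which restrain HIF, lies on chromosome 19 at 46297046 to 46343433 (plus strand) and was at 0.577, 0.406 and 0.733 TPM (mean 0.572 ± 0.164).

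HIF3A was called below 1 TPM by -0.83 on the log2(TPM + 0.01) scale (SE 0.241, adjusted p = 0.0269, limma). That call was lost without replicate 1 (-0.86, adjusted p = 0.0969) and without replicate 2 (-0.61, adjusted p = 0.0719), and against 0.5 TPM the sign turned (0.15, adjusted p = 0.575). Of the TPM of the alpha subunit genes together, 59.2 ± 0.698 (SD, n = 3), HIF1A held 87.3% ± 1.37, EPAS1 11.8% ± 1.62 and HIF3A 0.964% ± 0.265. Restricted to transcripts annotated as protein coding, the share of HIF1A was 86.1% ± 1.40.

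ARNT, the partner that all alpha subunits share and that also serves the aryl hydrocarbon receptor, lies on chromosome 1 at 150809705 to 150876768 (minus strand). It was at 50.5, 52.8 and 51.1 TPM in replicates 1, 2 and 3 (mean 51.5 ± 1.20, SD, n = 3). These values overlapped those of HIF1A, and HIF1A was the higher of the pair in 2 of 3 libraries. ARNT2, the closest relative of ARNT, was at 6.09, 6.07 and 5.69 TPM (mean 5.95 ± 0.228), below ARNT in every library; it is named after its value was seen.

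The prolyl hydroxylases were all above 1 TPM, with EGLN2 and EGLN1 several times higher than EGLN3. EGLN2, also called PHD1, lies on chromosome 19 at 40798996 to 40808433 (plus strand) and was at 53.6, 54.4 and 56.6 TPM (mean 54.9 ± 1.57, SD, n = 3). EGLN1, also called PHD2 and held to be the main oxygen sensor of HIF1A, lies on chromosome 1 at 231363751 to 231425044 (minus strand) and was at 40.3, 40.5 and 40.8 TPM (mean 40.5 ± 0.287). Of the 10 genes, EGLN1 varied least between libraries. EGLN3, also called PHD3 and itself a HIF target, lies on chromosome 14 at 33924231 to 34462774 (minus strand) and was at 7.79, 8.57 and 7.69 TPM (mean 8.02 ± 0.481).

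Together the prolyl hydroxylases reached 103 TPM ± 1.74 (SD, n = 3). EGLN2 held 53.1% ± 0.700 of that sum, EGLN1 39.2% ± 0.388 and EGLN3 7.76% ± 0.493. Counting protein-coding transcripts alone raised the share of EGLN2 to 64.0% ± 0.442 and left EGLN1 with 26.6% ± 0.466 and EGLN3 with 9.38% ± 0.331. The order of these genes was the same by either measure. All of the 31-base words that EGLN2 transcripts shared with other symbols, 28.9% of its words, were found in RAB4B-EGLN2, a readthrough of EGLN2 and its neighbour. RAB4B-EGLN2 was listed at 0, 0.516 and 0 TPM, and how reads were divided between it and EGLN2 is uncertain.

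VHL, the substrate-binding subunit of the ligase that destroys hydroxylated alpha subunits, lies on chromosome 3 at 10141008 to 10152220 (plus strand). Its level was 77.5, 77.4 and 75.7 TPM, and each library of VHL was above each library of every other gene of the set. HIF1AN, also called FIH, lies on chromosome 10 at 100529072 to 100559998 (plus strand) and was at 31.7, 30.6 and 29.1 TPM (mean 30.5 ± 1.30, SD, n = 3). HIF1AN was thus the lowest of the 6 genes above 10 TPM, and no library of it reached the level of EGLN1.

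CA9 was close to absent. It lies on chromosome 9 at 35673856 to 35681159 (plus strand) and was listed at 0.0871, 0 and 0.0296 TPM. The estimated count column, which matches replicate 1, held 1 read for CA9, assigned to the processed transcript CA9-203. The protein-coding CA9-201 was above 0 in replicate 3 alone, at 0.0296 TPM. CA9 was called below 1 TPM by -4.90 on the log2(TPM + 0.01) scale (SE 0.815, adjusted p = 0.00444, limma). ARHGEF39, read from the opposite strand, held 32.7% of the 31-base words of CA9, and whether strand was used in the counting is not known from the labels or headers.

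The 10 genes were then compared with each other within libraries, on the log2(TPM + 0.1) scale, with limma fitted to all genes against a reference gene of the set. Of 45 pairs, 43 differed at an adjusted p under 0.05. Nearly every expressed gene differs from any given gene: 98.3% of all tested symbols differed from HIF1A, 94.8% from EPAS1, 90.4% from HIF3A, 98.3% from ARNT, 98.1% from EGLN1, 98.4% from EGLN2, 96.3% from EGLN3, 98.8% from VHL and 97% from HIF1AN. In descending order the genes were VHL, EGLN2, HIF1A, ARNT, EGLN1, HIF1AN, EGLN3, EPAS1, HIF3A and CA9. The 2 pairs that did not differ were neighbours in that order, HIF1A with ARNT and EGLN3 with EPAS1.

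HIF1A exceeded ARNT by 0.0063 (log2, SE 0.0330, adjusted p = 0.857), and without replicate 3 the sign turned (-0.021, adjusted p = 0.556). EGLN3 exceeded EPAS1 in all 3 libraries, by 0.21 (SE 0.174, adjusted p = 0.247), a difference close to its standard error. Neither result shows that the genes are at the same level. EGLN2 exceeded HIF1A by 0.085, or 1.06-fold (SE 0.0252, adjusted p = 0.0184). This small difference lost the call without replicate 1 (0.094, adjusted p = 0.0818) and without replicate 2 (0.078, adjusted p = 0.114).

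The other steps of the order were larger. VHL exceeded EGLN2 by 0.49 (1.40-fold, SE 0.0319, adjusted p = 1.49e-05), ARNT exceeded EGLN1 by 0.34 (1.27-fold, SE 0.0294, adjusted p = 6.12e-05), and EGLN1 exceeded HIF1AN by 0.41 (1.33-fold, SE 0.0353, adjusted p = 0.000162). The step from HIF1AN to EGLN3, 1.91 (3.77-fold, SE 0.0623, adjusted p = 4.35e-09), separated the 6 abundant genes from the rest. EPAS1 exceeded HIF3A by 3.42 (10.7-fold, SE 0.297). HIF3A exceeded CA9 by 2.29 (SE 0.402), a value that depends on the pseudocount because CA9 is near 0, so no fold is given. For the last 2 steps the reference gene itself varied between libraries, which enters every gene's difference and makes the fitted p too small. With the variances of both genes added instead, adjusted p was 1.77e-05 for EPAS1 over HIF3A and 0.000111 for HIF3A over CA9. For HIF1AN over EGLN3, adjusted p was also larger with these variances added, at 1.39e-07.

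**Figure D2:**
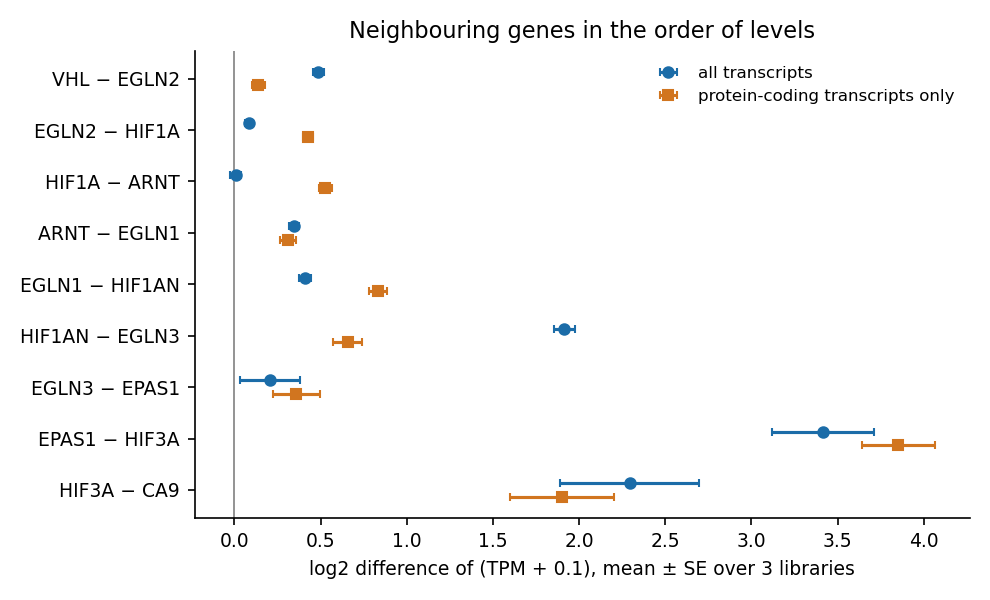
Difference between neighbouring genes in the order of levels, as log2 of (TPM + 0.1), mean ± SE over 3 libraries, for all transcripts (circles) and for protein-coding transcripts alone (squares). With all transcripts the differences HIF1A minus ARNT (0.0063) and EGLN2 minus HIF1A (0.085) lie nearest 0, and both are larger with protein-coding transcripts (0.53 and 0.43).

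Counting protein-coding transcripts alone kept this order of the 10 genes but changed the steps. Then all 45 pairs differed. The share of all symbols that differed was not computed for this setting. With all transcripts it was 90.4% to 98.8%, depending on the reference gene. HIF1A, at 37.8 TPM ± 1.04 (SD, n = 3), exceeded ARNT, at 26.2 TPM ± 1.07, by 0.53 (1.44-fold, adjusted p = 5.04e-06, limma). EGLN3, at 7.45 TPM ± 0.461, exceeded EPAS1, at 5.80 TPM ± 0.585, by 0.36 (1.28-fold, adjusted p = 0.00831, or 0.00357 with the variances of both genes added, an alternative chosen after seeing the data). VHL remained first, at 56.0 TPM ± 0.104, but its lead over EGLN2, at 50.9 TPM ± 2.01, narrowed to 0.14 (1.10-fold, adjusted p = 0.00720). HIF1AN was at 11.8 TPM ± 0.969, and its lead over EGLN3 narrowed to 0.66 (1.58-fold).

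The protein-coding share of TPM set these genes apart. It was 92.7% ± 1.29 (SD, n = 3) in EGLN2 and 93.1% ± 6.07 in EGLN3, 73.1% ± 0.757 in HIF1A and 72.9% ± 1.08 in VHL. In EGLN1 it was 52.1% ± 0.637, in ARNT 50.9% ± 1.79 and in HIF1AN 38.9% ± 4.68. The estimated counts gave another picture, since TPM divides reads by transcript length: coding transcripts held 92.2% of the counts of EGLN1, 87.2% of those of ARNT and 92.5% of those of HIF1AN. For EGLN1, ARNT and HIF1AN, therefore, the share of TPM outside protein-coding transcripts rested on a small share of the reads. The same held for HIF1A and VHL, with 3.45% and 8.94% of the estimated counts outside protein-coding transcripts.

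**Figure D3:**
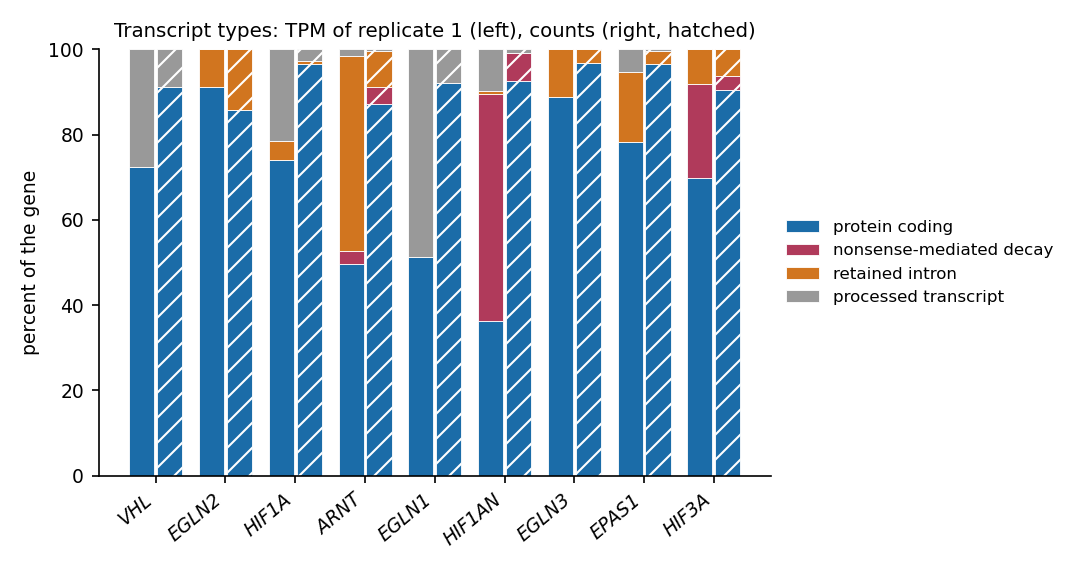
Share of each gene's TPM in replicate 1 (left bar, percent) and of its estimated counts (right, hatched bar) by GENCODE transcript type, for the 9 genes other than CA9. The protein-coding share of HIF1AN is 36.2% of TPM but 92.5% of estimated counts, and in EGLN2 it is 91.2% of TPM and 85.9% of counts.

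In EGLN1 a coding and a non-coding transcript stood nearly level. EGLN1-201, which encodes the enzyme of 426 codons, was at 20.7, 21.2 and 21.4 TPM. EGLN1-202, a processed transcript of 829 bases, was at 19.6, 19.2 and 19.4 TPM. EGLN1-202 begins in an exon of its own, on chromosome 1 at 231420176 to 231420343, and joins the same exon 2 as EGLN1-201, as the capitals of both junction sequences show. It held 47.9% ± 0.637 of the TPM of EGLN1 but 7.81% of its estimated counts, 286 against 3379 for EGLN1-201.

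VHL was split between transcripts with and without exon 2. VHL-201, with all coding exons, was at 22.8, 24.6 and 24.2 TPM. VHL-202 lacks exon 2, the 123 bases on chromosome 3 at 10146514 to 10146636, and was at 33.2, 31.3 and 31.9 TPM. VHL-202 was the higher in every library and held 57.4% ± 1.70 (SD, n = 3) of the pair. The skipped exon is a whole number of codons, so VHL-202 is annotated with 172 codons and VHL-201 with 213. In the junction sequences both share the end of exon 1 and part at the capitals. VHL-203, a processed transcript with its own first exon, was at 21.5, 21.5 and 19.6 TPM and held 8.94% of the estimated counts of VHL. It also contains exon 2, so the share of the pair does not give the share of VHL without exon 2. Of all VHL TPM, VHL-202 held 41.8% ± 1.23. Similar estimated counts for VHL-202 and VHL-201, 1958 and 1907, gave the higher TPM of VHL-202 because it is the shorter, 2696 against 3737 bases.

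HIF1A was carried mainly by HIF1A-202, at 28.7, 29.7 and 28.9 TPM. HIF1A-203, at 7.15, 5.94 and 8.20 TPM, differs at the start of exon 2, where it has 3 more bases, shown in capitals above, and 1 more codon. It held 19.6% ± 2.74 (SD, n = 3) of the pair. The processed transcripts HIF1A-211 and HIF1A-206 both lack the 191-base exon 2 of HIF1A-202 (chromosome 14 at 61720382 to 61720572) and changed places between libraries. HIF1A-211 was at 10.4, 1.19 and 11.7 TPM, and HIF1A-206 was above 8 TPM in replicate 2 alone (8.56 TPM, mean over libraries 2.85). Their sum was steadier, 10.4, 9.76 and 11.7 TPM (mean 10.6 ± 0.985), which is 20.5% ± 1.34 of HIF1A TPM and 2.50% of its estimated counts. How reads were divided between these overlapping transcripts is thus uncertain.

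ARNT had its highest TPM in ARNT-209, a retained-intron transcript of 570 bases that runs 42 bases past the end of exon 6. ARNT-209 was at 20.5, 20.2 and 19.96 TPM, or 39.2% ± 1.20 of ARNT (SD, n = 3), yet it held 174 estimated counts, 7.35% of the gene. Of the coding transcripts, ARNT-202 was at 10.9, 9.27 and 12.2 TPM. ARNT-208 lacks the 45-base exon 5 on chromosome 1 at 150842424 to 150842468 and was at 9.45, 12.2 and 8.97 TPM. ARNT-208 was the higher of this pair in replicate 2 alone, and its share of the pair, 48.5% ± 7.47, did not separate them.

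HIF1AN was split between a very long protein-coding transcript and a short one outside that type. HIF1AN-201, 13011 bases long with a last exon of 11906 bases, was at 9.09, 9.05 and 9.45 TPM and held 2764 estimated counts, 90.9% of the gene. HIF1AN-203, a transcript of 708 bases annotated for nonsense-mediated decay, was at 16.9, 17.6 and 15.4 TPM with 198 estimated counts. Exon 1 of HIF1AN-203 ends 85 bases before that of HIF1AN-201, so the junction sequences differ before the capitals and agree after them.

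EGLN2, EGLN3 and EPAS1 each rested mainly on 1 coding transcript. EGLN2-201 held 82.0% ± 1.80 of EGLN2 TPM (44.98 TPM ± 2.01, SD, n = 3), EGLN3-201 held 76.0% ± 6.54 of EGLN3 (6.08 TPM ± 0.371) and EPAS1-201 held 80.0% ± 7.70 of EPAS1 (5.53 TPM ± 0.208). EGLN3-209, also coding, was listed at 0, 1.19 and 1.37 TPM and held 10.7% of the mean TPM of EGLN3. In HIF3A no transcript was above 0.155 TPM on average, and the coding transcripts HIF3A-205 (0.142, 0.209 and 0.113 TPM) and HIF3A-206 (0.243, 0.0278 and 0.167 TPM) led. The retained-intron transcript HIF3A-217 was listed above 0 in replicate 3 alone, at 0.342 TPM, the library in which HIF3A was highest. HIF3A-214, annotated for nonsense-mediated decay, averaged 0.0833 TPM, and the retained-intron HIF3A-207 averaged 0.0625 TPM.

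**Figure D4:**
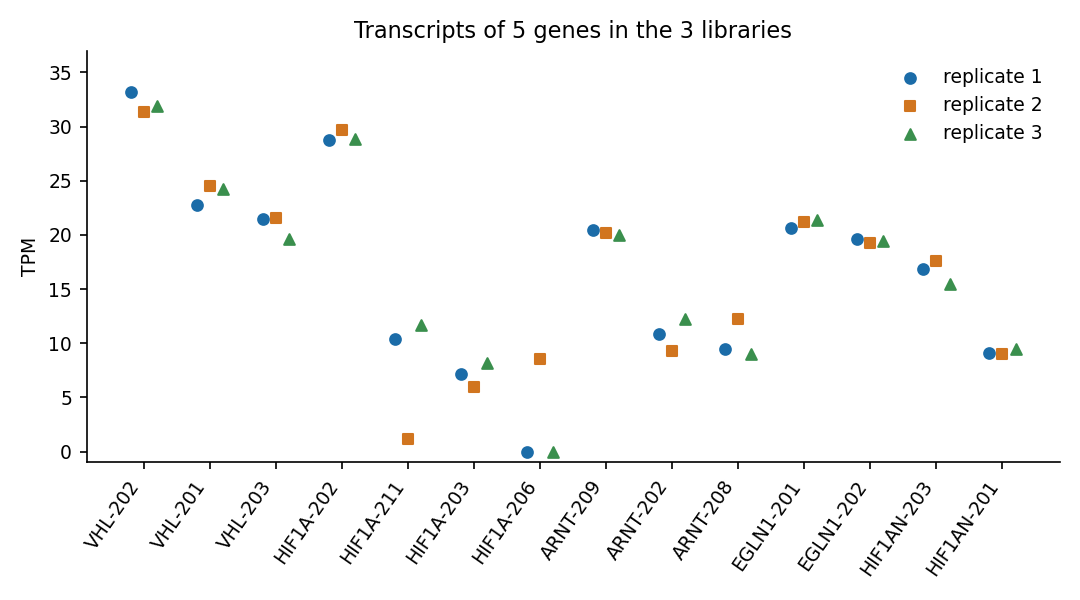
TPM (vertical axis) of 14 transcripts of VHL, HIF1A, ARNT, EGLN1 and HIF1AN, 1 point per library. HIF1A-211 and HIF1A-206 change places in replicate 2 (1.19 and 8.56 TPM), while EGLN1-201 and EGLN1-202 stay between 19.2 and 21.4 TPM.

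Between libraries, the abundant genes of the set varied little. The coefficient of variation was 0.708% for EGLN1, 1.32% for VHL, 2.34% for ARNT, 2.76% for HIF1A, 2.86% for EGLN2 and 4.25% for HIF1AN. EGLN3, at 5.998%, and EPAS1, at 12.6%, varied more. The median over the 8 genes of the set with a mean of at least 1 TPM was 2.81%, and over all 13475 such symbols it was 4.54%. These medians were not matched for level. HIF3A and CA9, below 1 TPM, varied by 28.6% and 113.8%.

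HIF binds the short core motifs ACGTG and GCGTG, and EGLN1, EGLN3 and CA9 are known HIF targets, so the start sites were searched for both motifs on both strands. The windows ran from 250 bases before to 50 after each start in RefSeq (GRCh38.p14), and all genes except VHL were in that table. Of 35116 promoters of this length, 21.4% held ACGTG, 36.5% held GCGTG and 48.5% held either. ACGTG or its complement was in the windows of CA9 (1 match), EGLN1 (1) and EGLN2 (2), and GCGTG in those of EPAS1 (1), HIF1A (1) and HIF3A (3). EGLN2, HIF1A and HIF3A had more than 1 window each, and their matches all lay in 1 of them. The shares over all promoters count windows, so they do not compare with a count of genes. ARNT, EGLN3 and HIF1AN had neither in their windows. A stretch with an ACGTG match is shown for each of the 3 genes that had one, with the match in capitals, written along the gene's strand. CACGTG in EGLN2 reads the same on both strands and so counts as 2 matches that overlap, and CACGT in CA9 is the complement of ACGTG.
CA9, chr9:35673898-35673927, plus strand: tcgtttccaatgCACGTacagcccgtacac
EGLN1, chr1:231422283-231422312, minus strand: gggccgtggtgtACGTGcagagcgcgcaga
EGLN2, chr19:40799130-40799159, plus strand: gcggggcgcggtCACGTGcccaccgggcga
The match lies 18 bases before the RefSeq start in CA9, 13 in EGLN1 and 49 in EGLN2. These starts differ from the GENCODE positions given above, and all 3 matches lie inside the GENCODE genes. CA9, near 0, and EGLN1 and EGLN2, both above 40 TPM, thus carried the motif alike, and no binding was measured here.

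The other genes of the pathway were described from lists, by the same test against 1 TPM. Over all symbols 35.8% were above 1 TPM with a median of 0.0994 TPM, and over symbols with a protein-coding transcript 62.0% were above with a median of 6.61 TPM. All 4 ubiquitin ligase partners of VHL were above 1 TPM, with a median of 125 TPM. The adaptor proteins ELOB (356 TPM ± 10.9, SD, n = 3) and ELOC (129.6 TPM ± 2.92) and the RING protein RBX1 (121 TPM ± 3.21) were each higher than VHL in every library. The scaffold CUL2, at 29.3 TPM ± 0.733, was lower than VHL in every library.

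Coactivators and regulators of HIF stability were all above 1 TPM, 14 of 14, with a median of 32.9 TPM. RACK1, which promotes oxygen-independent loss of HIF1A protein, was at 3756 TPM ± 23.8 (SD, n = 3), and the chaperones HSP90AB1 and HSP90AA1, which protect HIF1A, were at 1455 TPM ± 25.1 and 1278 TPM ± 2.09. At the other end, the ubiquitin ligase SIAH2, which acts on prolyl hydroxylases such as EGLN3, was at 15.4 TPM ± 0.992, the deubiquitinase USP20 was at 14.5 TPM ± 0.806, and CITED4, a relative of CITED2, which competes with HIF1A for the coactivator EP300, was at 4.41 TPM ± 0.337.

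Of 12 other bHLH-PAS factors, the family of the alpha subunits and ARNT, 10 were above 1 TPM, 1 was undecided and 1 was listed at 0, with a median of 6.90 TPM. NPAS1, known from the nervous system, was the highest at 20.3 TPM ± 0.906 (SD, n = 3), before ARNTL2 of the circadian clock at 14.8 TPM ± 0.870 and AHRR, the repressor of the aryl hydrocarbon receptor, at 12.5 TPM ± 1.14. The receptor itself, AHR, was at 5.58 TPM ± 0.649 and SIM1 at 2.28 TPM ± 0.0810. NPAS3 was undecided, at 0.472, 0.270 and 1.32 TPM, and NPAS4, an activity-induced factor of neurons, was listed at 0. No member of this list reached the level of HIF1A or ARNT in any library.

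Of 12 other 2-oxoglutarate oxygenases, the enzyme class of the EGLN proteins and HIF1AN, 10 were above 1 TPM and 2 below, with a median of 23.7 TPM. The histone demethylase KDM5C (105 TPM ± 0.494, SD, n = 3), the ribosomal hydroxylase OGFOD1 (95.1 TPM ± 4.87) and JMJD6 (58.3 TPM ± 1.91) led, all above EGLN2 on average. The demethylase KDM4C was at 7.91 TPM ± 0.737. The genes below were P4HTM (0.424 TPM ± 0.0715), a membrane-bound prolyl hydroxylase also tied to HIF, and the collagen prolyl hydroxylase P4HA3 (0.247 TPM ± 0.212).

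Known HIF targets were mostly above 1 TPM although CA9 was not, 45 of 53 in all, with 5 below, 1 undecided and 2 listed at 0 and a median of 20.02 TPM. Many of these genes have other regulators and serve all cells. In glucose metabolism 18 of 19 were above, with a median of 99.0 TPM. The glycolytic enzymes GAPDH (2689.5 TPM ± 21.6, SD, n = 3), ENO1 (2376 TPM ± 27.3) and ALDOA (1297 TPM ± 16.0) were highest. The regulatory enzyme PFKFB4 was at 6.11 TPM ± 0.485 and the glucose transporter SLC2A3 at 2.15 TPM ± 0.352. The lactate exporter SLC16A3 was below, at 0.227, 0.425 and 0.427 TPM.

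Of 34 other HIF targets 27 were above 1 TPM, 4 below, 1 undecided and 2 listed at 0, with a median of 11.6 TPM. The mitochondrial protein gene FAM162A (92.0 TPM ± 2.37, SD, n = 3), DDIT4, an inhibitor of mTORC1 signalling (61.9 TPM ± 1.30), and the adenylate kinase AK4 (58.6 TPM ± 0.926) were highest. EPO, which encodes erythropoietin, was at 0.0754, 0.0741 and 0.149 TPM, also near 0. EDN1, the gene of endothelin, was at 0.0612 TPM ± 0.0134. ANGPTL4 and PPP1R3C were listed at 0 in every library. TGFA, below at 0.596 TPM ± 0.141, and TF, undecided at 1.02 TPM ± 0.0504, are named after their values were seen, as is VEGFA, the main angiogenic target, at 33.0 TPM ± 1.26.

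Carbonic anhydrases other than CA9 were split, with 6 of 14 above 1 TPM, 6 below and 2 listed at 0, and a median of 0.515 TPM. Without replicate 1 the number below was 3. The cytosolic CA2 was at 397, 398 and 390.1 TPM, far above every other gene of this family in each library. CA8, a relative without catalytic activity, was at 47.3 TPM ± 1.503 (SD, n = 3) and CA11, likewise inactive, at 14.8 TPM ± 0.726. CA3 (0.171 TPM ± 0.0600), CA1 (0.0695 TPM ± 0.0609) and CA4 (0.0448, 0 and 0 TPM) were the lowest above 0, and CA7 and CA10 were listed at 0. CA12, the other cell-surface enzyme counted as a HIF target, was at 3.90, 3.59 and 4.01 TPM, above CA9 in every library; it is named after its value was seen.

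**Figure D5:**
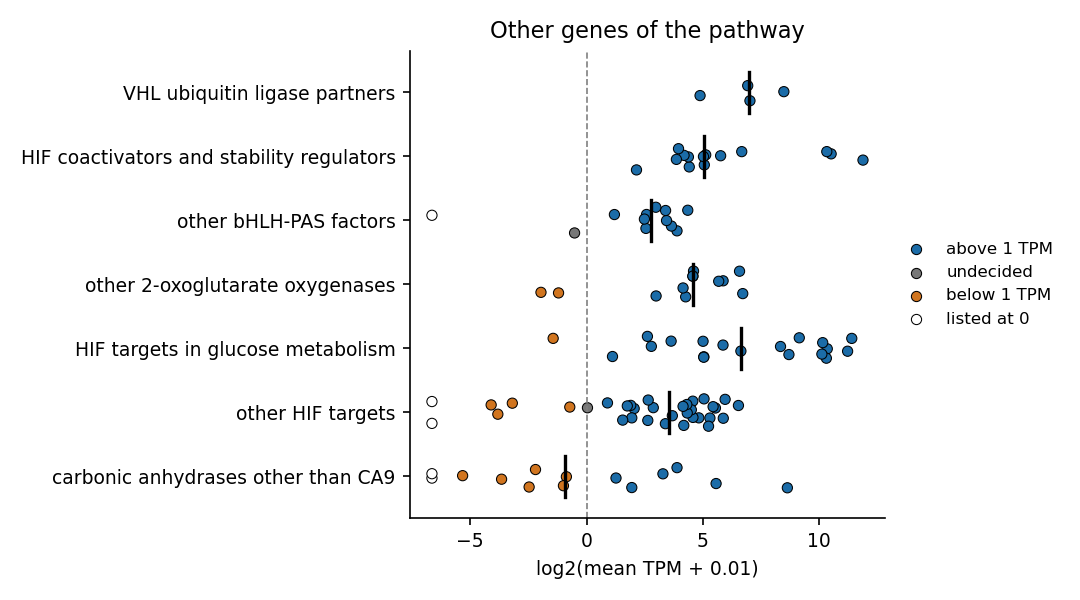
Mean level over 3 libraries of the genes in 7 pathway lists, as log2(mean TPM + 0.01), 1 point per gene, coloured by its call against 1 TPM (dashed line), with a bar at each list's median. Genes listed at 0 are open circles; the carbonic anhydrases have their median below 1 TPM (0.515 TPM), and the other 6 lists have theirs above it.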

How the data were processed

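Poly(A) RNA of 3 untreated HEK293T libraries (1 group) was quantified by the authors per transcript. The submitters' processing notes name kallisto and hg38; its version, options and strand setting, and the transcript release, are not given in the sources used here. In the deposited table are TPM for each library and 1 column of estimated counts that names no library, per the file headers. That column summed to 33184885 and, rescaled, equalled the TPM of replicate 1 within 1.08e-05 (relative difference). TPM keeps no depth. Of low values, 20.2% to 21.1% lay within 0.02 reads of a whole number (4% by chance), so depths are estimates.

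TPM was summed by symbol in Python 3.11.15. Of 185299 transcripts 90.1% matched GENCODE 29, including all 96 of the 10 genes, of which 63 were above 0. Levels and pairs were tested with limma 3.58.1 in R 4.3.3, and edgeR 4.0.16 gave TMM scaling. The fits were tried on simulated data, for pairs with HIF1A as the only reference. The more variable references EGLN3, EPAS1 and HIF3A were not simulated. Named are all 10 genes, per pathway list the 3 highest, the 3 lowest above 0 and those at 0, and transcripts with at least 10% of their gene's mean TPM. Of the marker lists, the highest and the lowest HEK293T marker and the markers at 0 are named. A gene that this rule would name is not reported here. P4HA1, P4HA2, KDM3A and CA12 stand in more than 1 list. The genes and lists were chosen with earlier results of these data known. Alternatives were other pseudocounts, levels, scalings and filters, coding transcripts alone, and leaving out each library.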

Additional observations from a re-analysis of the deposited data

How the results depend on the processing

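The number of the 10 genes above 1 TPM was 8 under all 13 alternatives tried. The number below was 1, not 2, with the filter on a mean of at least 0.1 TPM (CA9 was then not tested) and against 0.5 TPM, where HIF3A turned to 0.15 on the log2 scale (adjusted p = 0.575, limma), and it was 1 to 2 when 1 library was left out. EGLN2 over HIF1A ranged from 0.078 to 0.094 with 1 library left out. HIF1A over ARNT ranged from -0.021 to 0.039 with 1 library left out and was 0.53 (adjusted p = 5.04e-06) with protein-coding transcripts alone. EGLN3 over EPAS1 was 0.36 (adjusted p = 0.00831) with protein-coding transcripts alone. With variances of both genes added, it was not called over all transcripts (adjusted p = 0.0909) but was over protein-coding ones (adjusted p = 0.00357), as was HIF1A over ARNT (adjusted p = 5.56e-07); this last alternative was chosen after seeing the data, and all 45 pairs differed in it. EGLN2 over ARNT, 0.092, lost its call without replicate 1 (adjusted p = 0.0800) and without replicate 3 (adjusted p = 0.247). Without the replicate block, that is with variances of both genes added in place of the within-library difference, EGLN2 over HIF1A stayed at 0.085 (adjusted p = 0.0284), and 43 of 45 pairs differed again. For these alternatives the share of all symbols that differed was not computed, so the counts of pairs have no background beside them. No paired analysis was possible between groups because there is 1 group. Counts of list members below the level tested moved by over 1.5 times, or to or from 0, in 18 instances. Some of these came with the levels 0.5 and 2 TPM or the filter at 0.1 TPM, which change what is counted. The cause of the other shifts was not tested. Depth limits CA9 and HIF3A, with 1 and 32 estimated counts.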

Other observations

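RAB4B, the small GTPase gene next to EGLN2, was at 7.10, 7.59 and 7.35 TPM, and each library of it was below each library of EGLN2. The VHL-like gene and the pseudogenes of EGLN1 and HIF1A were below 1 TPM in every library. The pseudogene EGLN1P1 was listed at 0.622, 0 and 0 TPM, the VHL-like gene VHLL at 0, 0.0889 and 0 TPM, and the pseudogene HIF1AP1 at 0 in every library. EGLN1P1 held 2.18% of the 31-base words of EGLN1 and SCAND2P, another symbol, held 4.16%. EPAS1 and EGLN3 shared no such word with another symbol.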
